A study of Mus musculus with 29 samples.

Results

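Trichostatin A (TSA) is a drug that inhibits histone deacetylases, the enzymes that take acetyl groups off histone tails. The comparison described here asked which RNAs differ between TSA-treated and vehicle-treated mouse embryonic cortex at E16.5 in the cells that lack Tbr2, by RNA sequencing of the 5 libraries of these groups, out of 29 samples in the series. The 3 vehicle libraries and the 2 TSA libraries were taken by their titles, and no measured value was used to choose them. Every group was labelled as embryonic cortex at E16.5 and differed in the agent (vehicle or TSA) and in the sorted fraction (Tbr2-negative or Tbr2-positive). The labels name no strain, dose, route or length of treatment, and none says whether replicates were separate animals. The p-values therefore cover only how these libraries scatter, which may be technical. The series text speaks of nuclei sorted by flow cytometry, while the protocol attached to the RNA samples speaks of TRIZOL extraction from tissue, and the descriptions do not settle which applies.

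Tbr2 is the protein of the gene Eomes and marks the basal progenitors of the cortex, which divide away from the ventricle and give rise to excitatory neurons. A Tbr2-negative fraction of this age is a mixture: it can hold radial glia, postmitotic excitatory neurons, inhibitory interneurons that have migrated in from the ventral forebrain, and non-neural cells. Deacetylase inhibitors raise histone acetylation, including that of lysine 9 of histone H3 (H3K9ac), a mark found at the starts of active genes, and are known to raise some genes and lower others.

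The label of the fraction was checked with Eomes. Levels are given as CPM, a count divided by its library size, which TMM scaling had first corrected for composition. Eomes was at 21.97, 13.9 and 18.2 in the 3 Tbr2-negative vehicle libraries and at 14.2 and 8.24 in the 2 TSA libraries, against a mean of 443 ± 93.4 (SD, n = 3) in the Tbr2-positive vehicle libraries. The fraction thus carried little Eomes RNA in all 5 libraries. The Eomes difference between TSA and vehicle was -0.69 ± 0.26 on the log2 scale (SE) and did not pass the test (adjusted p = 0.163, edgeR). Total counts were 18567111 to 26282652 per library, and both TSA libraries were deeper than every vehicle library. Between 22535 and 23924 genes had a count.

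Tested across 20078 genes, 164 rose under TSA, which is 0.817% of them, and 72 fell, which is 0.359% (adjusted p below 0.05, edgeR quasi-likelihood test). The rises were moderate, from 1.59-fold to 27.4-fold with a median of 1.94-fold, and the falls ran from 1.72-fold to 72.5-fold with a median of 2.54-fold. The outermost values, of Sqor and of the predicted gene Gm3636, rest on few counts in one group. The risen genes included 22 cytosolic ribosomal protein genes, 22 nuclear genes of the respiratory chain, the thymosin genes Tmsb10 and Tmsb4x, a few ventral forebrain and interneuron genes and Sox2, while 97 of the 164 were in none of the gene lists. The fallen genes included the splicing factor Cwc22, the lipid regulator Srebf1, the actin cross-linker Flna and many transcripts known only by a clone or predicted name, which made up 33 of the 72 (45.8%) against 26.3% of all genes tested and 4 of the 164 that rose (2.44%).

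All of these calls sit close to the threshold, with adjusted p between 0.0481 and 0.0496. None remained when Tbr2-negative vehicle library 1 or 3, either TSA library, or Tbr2-positive vehicle library 2 was left out, when scaling was by the upper quartile (lowest adjusted p = 0.0522) or when the fit was not robust (0.0521). Each of the 236 genes kept its direction in every one of these fits. Their group ranges were apart, so a turn was unlikely and the kept directions are no separate support. Without vehicle library 2, 486 genes rose and 191 fell. With the replicate number as a block 11 rose and 3 fell, of which 3 and 2 were among the 236. At an unadjusted p below 0.05, 2073 genes (10.3%) were higher and 1964 (9.78%) were lower under TSA. The CPM ranges of the groups were apart in all 236 called genes, a feature shared by 3965 genes (19.7%) in the higher and 4216 (21.0%) in the lower direction.

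The libraries of one group also differed among themselves along the same genes. Of the 164 risen genes, vehicle library 2 was the highest vehicle library in 143 and vehicle library 1 the lowest in 131, while TSA library 1 was above TSA library 2 in 154. Among the 72 fallen genes, TSA library 1 was below TSA library 2 in 63. The part of this difference within groups in the difference between groups was not tested.

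Thymosins, small proteins that bind actin monomers, gave the largest rise among called genes at 2 CPM or more, clone and predicted names aside. Tmsb10 (ENSMUSG00000079523, chromosome 6) was at 168, 264.5 and 225 CPM in the vehicle libraries and at 706 and 560 CPM in the TSA libraries. All TSA values lay above all vehicle values, a rise of 1.53 ± 0.23 on the log2 scale (SE, as after every log2 fold change below; adjusted p = 0.0481, edgeR). Tmsb4x, its relative on the X chromosome, went from 1779, 3076 and 2282 CPM to 7060 and 4932 CPM, 1.33 ± 0.25 higher on the log2 scale (adjusted p = 0.0481, edgeR). Vehicle library 2 and TSA library 1 were the highest of their groups for both thymosins. Of the 19 thymosin and actin regulator genes tested, these 2 rose and none fell. All 19 log2 fold changes were above 0, with a median of 0.63, where the median over all genes tested was -0.08 and 44.6% were above 0.

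**Figure D1:**
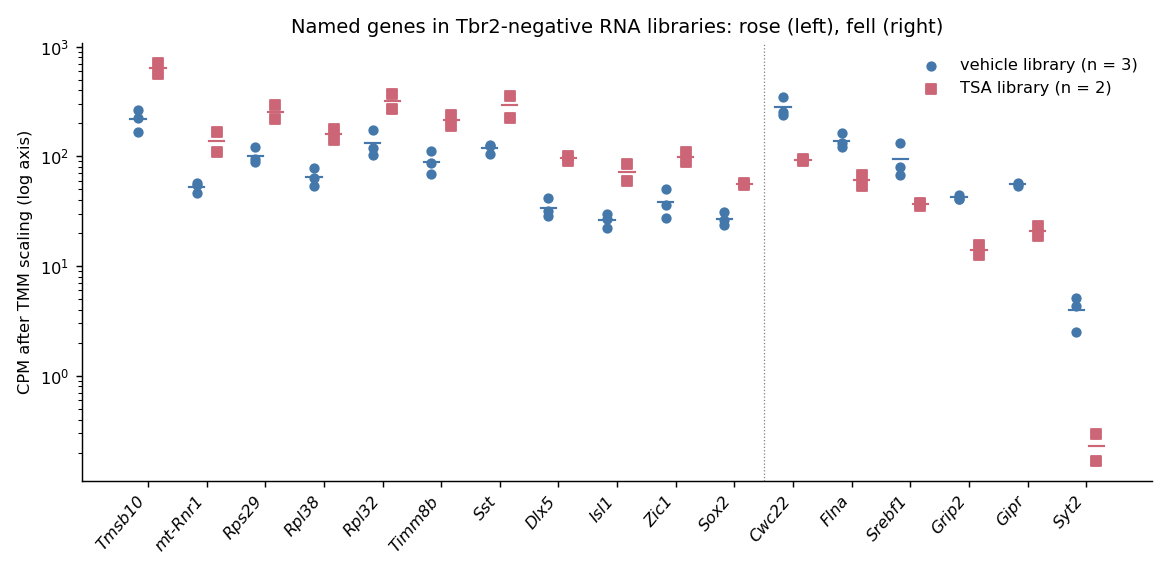
CPM after TMM scaling (log axis) of 17 named genes in the Tbr2-negative RNA libraries; circles are the 3 vehicle libraries, squares the 2 TSA libraries and short lines the group means. The 11 genes left of the dotted line rose and the 6 right of it fell, and in each gene the symbols of the groups do not overlap.

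Ribosomal protein genes encode the protein part of the cytosolic ribosome. Of 84 listed, 80 passed the filter on low counts, 22 rose and none fell, 78 were above 0, and 73 were higher at an unadjusted p below 0.05 with none lower. The median log2 fold change was 0.83. Rps29, a protein of the small subunit, was at 89.8, 121 and 94.0 CPM under vehicle and at 293 and 220 CPM under TSA (log2 fold change 1.34 ± 0.21; adjusted p = 0.0481, edgeR). Rpl38, of the large subunit, went from 53.5, 77.7 and 64.0 CPM to 178 and 140 CPM. Rpl32 had 102, 173 and 120 CPM under vehicle and 372 and 271.5 CPM under TSA, and Rpl39 had 36.2, 52.2 and 40.2 CPM and 125 and 85.3 CPM. In each of these genes the lowest TSA library was above the highest vehicle library. Summed over the list, the level was 8563, 12330 and 10070 CPM in the vehicle libraries and 19860 and 15480 CPM in the TSA libraries. Many of these genes have near-identical processed pseudogenes, so their counts depend on how shared reads were assigned, a step no source used here describes.

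The mRNAs of vertebrate ribosomal proteins typically begin with a C followed by a run of pyrimidines, the 5′ terminal oligopyrimidine tract, through which their translation is regulated. Of the 22 risen ribosomal protein genes, 19 had a RefSeq promoter window of build GRCm38.p6, and 5 of these (26.3%) had a listed start at a C followed by at least 4 pyrimidines on the sense strand, compared with 24.1% of the 58 tested ribosomal protein genes with a window, 3.01% of all genes with a promoter in the table and 3.25% of the other risen genes. The windows of these genes are shown because they are the members in which the listed start carries the tract. They span 85 bases before to 15 bases from the start, with the C or T run from the start in capitals, and lie at chr2:39005117-39005216 (minus strand, Rpl35), chr11:114668495-114668594 (plus, Rpl38), chr7:141447566-141447665 (plus, Rplp2), chr17:27635230-27635329 (minus, Rps10) and chr2:180257294-180257393 (plus, Rps21).
Rpl35: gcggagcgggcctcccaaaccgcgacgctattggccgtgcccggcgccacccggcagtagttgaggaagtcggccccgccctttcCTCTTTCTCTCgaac
Rpl38: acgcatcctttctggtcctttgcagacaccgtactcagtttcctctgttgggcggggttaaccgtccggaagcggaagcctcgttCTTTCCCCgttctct
Rplp2: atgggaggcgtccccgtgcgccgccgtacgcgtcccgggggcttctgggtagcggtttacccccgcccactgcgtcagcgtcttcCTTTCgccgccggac
Rps10: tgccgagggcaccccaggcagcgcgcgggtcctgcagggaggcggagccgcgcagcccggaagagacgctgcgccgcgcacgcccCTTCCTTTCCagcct
Rps21: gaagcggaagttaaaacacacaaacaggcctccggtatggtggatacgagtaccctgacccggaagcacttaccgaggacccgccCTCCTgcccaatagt

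The run was 11 bases long in Rpl35, 10 in Rps10, 8 in Rpl38 and 5 in Rplp2 and Rps21. A start listed a few bases away would hide the tract, so the count is a description of the table's starts. The GC box GGGCGG, searched on both strands of the 250 bases before the start, was present in 55.6% of the 142 risen genes with a window, in 60.1% of tested genes with a window and in 35.4% of all genes in the table.

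Nuclear genes of the mitochondrial respiratory chain showed the same direction. Of 79 tested, 22 rose and none fell, 77 were above 0 and the median log2 fold change was 0.74. Atp5e, a small subunit of ATP synthase, went from 63.9, 95.3 and 73.6 CPM to 204.5 and 152 CPM (log2 fold change 1.2 ± 0.22; adjusted p = 0.0481, edgeR). Cox7b, a subunit of cytochrome c oxidase, went from 178, 215 and 170.0 CPM to 353 and 481 CPM. Ndufc1, of complex I, had 72.9, 108 and 89.2 CPM under vehicle against 204 and 179 CPM under TSA. Of the 77 mitochondrial ribosomal protein genes tested, 5 rose and none fell, with a median of 0.53. Examples are Mrpl42 (log2 fold change 1.07 ± 0.21), Mrpl18 (0.97 ± 0.20) and Mrpl32 (0.82 ± 0.16). Timm8b, a chaperone of the space between the mitochondrial membranes, went from 68.6, 112 and 87.5 CPM to 239 and 188 CPM.

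Transcripts of the mitochondrial genome itself were measured by 9 genes that passed the filter, of which 1 rose. That gene, mt-Rnr1, encodes the small mitochondrial ribosomal RNA. It was at 46.2, 55.0 and 57.3 CPM under vehicle and at 167 and 109 CPM under TSA (log2 fold change 1.38 ± 0.24; adjusted p = 0.0481, edgeR). Summed over the list, the mitochondrial level was 1036, 2784 and 2575 CPM in the vehicle libraries and 4827 and 3297 CPM in the TSA libraries, so vehicle library 1 stood well below the other vehicle libraries.

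Several smaller groups of abundant housekeeping genes lay on the same side. Of 22 Sm and Lsm genes, which encode the protein rings of spliceosomal RNAs, Snrpd3, Snrpd1 and Snrpg rose and 21 were above 0 (median log2 fold change 0.75, and 0.49 without TSA library 1). Of 14 chaperonin and prefoldin genes, which fold actin and tubulin, Pfdn4 and Pfdn5 rose and all 14 were above 0 (median 0.50). Of the 37 tested genes listed under proteasome subunits Psmd10 alone rose (median 0.52). Of the 61 listed under translation factors Naca and Tpt1 alone rose (median 0.41). Of 19 vacuolar ATPase genes, whose product acidifies organelles, Atp6v1f and Atp6v1d rose (median 0.37). None of these 5 lists had a gene that fell. Among 13 tubulin genes none rose or fell, and 1 was higher at an unadjusted p below 0.05.

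The risen genes with the highest levels over the 5 libraries included, beside Tmsb4x and Ndufa4, the peptidyl-prolyl isomerase gene Ppia, which went from 554, 813 and 616 CPM to 1342 and 1134 CPM. Nnat, an imprinted gene of the developing brain, went from 1361, 1426 and 1777 CPM to 2901 and 2733 CPM (log2 fold change 0.89 ± 0.16; adjusted p = 0.0481, edgeR). Here vehicle library 3, and not library 2, was the highest of its group. Gng2, a G protein gamma subunit, Selenow, a selenoprotein, and Hsbp1, a small protein that binds heat shock factor, had log2 fold changes of 1.05 ± 0.21, 1.19 ± 0.23 and 0.96 ± 0.20.

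**Figure D2:**
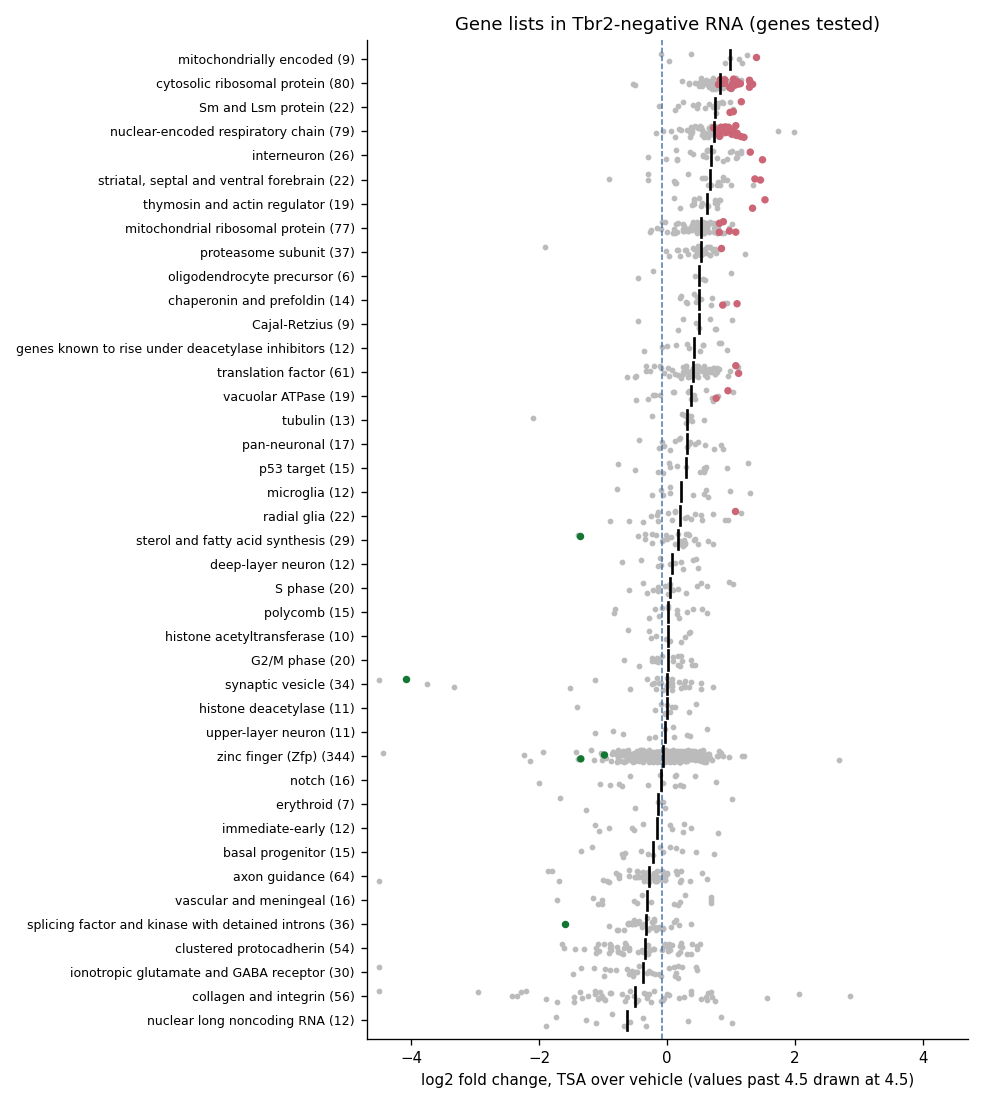
Log2 fold change of TSA over vehicle in Tbr2-negative RNA for each tested member of the gene lists shown, with the number tested in parentheses; each grey dot is a gene that did not pass the test, red dots rose, green dots fell, black bars are list medians and the dashed line is the median of all genes tested (-0.08). The medians of the cytosolic ribosomal, respiratory chain and Sm and Lsm lists lie right of the dashed line, and the nuclear long noncoding RNA list has the lowest median drawn (-0.63; -0.39 without TSA library 1).

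A few genes of interneurons and of the ventral forebrain also rose. Dlx5, a homeobox factor of the ganglionic eminences, was at 28.5, 41.9 and 32.1 CPM under vehicle and at 100.4 and 91.5 CPM under TSA, which was a rise of 1.49 ± 0.27 on the log2 scale (SE; adjusted p = 0.0481, edgeR). Sst encodes somatostatin, the peptide of a class of cortical interneurons. It went from 105, 125 and 126 CPM to 358 and 226 CPM (log2 fold change 1.30 ± 0.25; adjusted p = 0.0482, edgeR). These were the genes that rose among 26 interneuron genes, of which none fell and 24 were above 0. The list median was 0.68, and 13 genes were higher at an unadjusted p below 0.05. Its summed level was 1599, 1638 and 1413 CPM under vehicle, close together, and 2509 and 2332 CPM under TSA, without overlap. Ranges were apart in this direction in 19.7% of all single genes tested. Markers within the list moved to unequal extents: the log2 fold change was 1.16 ± 0.32 for Dlx2 (adjusted p = 0.0738, edgeR), and for Gad1 and Gad2, which make the enzymes of GABA synthesis, 0.62 ± 0.30 and 0.35 ± 0.25 (adjusted p = 0.270 and 0.456, edgeR). In bulk libraries, more cells of a type cannot be told apart from more RNA per cell.

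The Sst promoter contains the palindrome TGACGTCA, the cyclic AMP response element first studied in this gene. It was found with its first base at position -48 from the listed start in the window chr16:23890830-23890929 (minus strand, GRCm38.p6), shown with the element in capitals. The same letters were present in the 250 bases before the start of 1.77% of genes in the table, of 2.89% of tested genes with a window and of 2.82% of the risen ones.
Sst: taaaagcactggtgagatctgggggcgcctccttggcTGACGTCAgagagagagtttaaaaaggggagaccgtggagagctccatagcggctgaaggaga

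Of 22 striatal, septal and ventral forebrain genes, Isl1 and Zic1 rose and none fell (median log2 fold change 0.66, 19 above 0). Isl1, a LIM homeobox factor of striatal precursors, was at 22.4, 29.6 and 27.0 CPM under vehicle and at 60.05 and 84.5 CPM under TSA (log2 fold change 1.46 ± 0.30; adjusted p = 0.0482, edgeR). Zic1, a zinc finger factor of the septum and other midline regions, went from 27.6, 51.0 and 36.2 CPM to 88.1 and 109.5 CPM. For both genes TSA library 2 was above TSA library 1, which held for few of the risen genes. The list summed to 648, 752 and 662 CPM under vehicle and to 1015 and 1097 CPM under TSA. Whether the dissected tissue held equal parts of ventral forebrain in each library was not tested.

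Among 22 radial glia genes, Sox2 alone passed. Sox2, a transcription factor that maintains neural progenitors, was at 31.0, 23.5 and 26.4 CPM under vehicle and at 57.6 and 55.3 CPM under TSA, and the groups were far apart beside the spread within each (log2 fold change 1.06 ± 0.20; adjusted p = 0.0481, edgeR). The summed level of the list overlapped between the groups, at 2180 to 2281 CPM under vehicle and at 2194 to 2348 CPM under TSA. Pax6, another radial glia factor, had 70.7, 36.4 and 42.9 CPM under vehicle and 47.7 and 57.3 CPM under TSA, and its groups overlapped. Mki67, a marker of dividing cells, was at 48.5, 37.1 and 15.5 CPM and at 41.0 and 38.3 CPM. No gene of the lists for S phase (20 tested), G2/M phase (20), basal progenitors (15), deep-layer neurons (12), upper-layer neurons (11) or pan-neuronal genes (17) passed in either direction. Of all genes tested only 1.18% passed, so lists this short can hold no call at that share. The pan-neuronal genes summed to 10740, 13190 and 11130 CPM under vehicle and to 15830 and 14340 CPM under TSA. These sums did not overlap, as was so for 19.7% of all single genes tested in this direction. The median log2 fold change of the pan-neuronal genes was 0.32, and 6 were higher and none lower at an unadjusted p below 0.05. The part of these markers in the interneuron and ventral forebrain values was not tested.

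Markers of other cell types that a cortical sample can hold gave no call, where 1.18% of all genes tested were called. Each listed one had a count in at least 1 of the 5 libraries. The 12 microglia genes summed to 38.8 to 69.5 CPM under vehicle and 62.8 to 82.3 CPM under TSA, and the 16 vascular and meningeal genes to 52.7 to 77.5 CPM and 50.8 to 53.2 CPM. The 7 erythroid genes tested ranged from 483 to 704 CPM and from 387 to 675 CPM in sum, with overlapping groups. The 6 oligodendrocyte precursor genes summed to 40.8 to 66.2 CPM under vehicle and 69.9 to 70.45 CPM under TSA. These were just apart, as were 19.7% of all single genes tested in this direction. The 9 Cajal-Retzius genes summed to 272 to 338.5 CPM and 297 to 439 CPM, with overlap.

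Cwc22 (ENSMUSG00000027014, chromosome 2) had the largest fall among the 8 fallen genes highest in level. Its protein is a splicing factor that loads the exon junction complex onto spliced mRNA, and its locus is known to vary in copy number between mouse strains. It was at 253, 347 and 238 CPM in the vehicle libraries and at 90.2 and 95.3 CPM in the TSA libraries, with log2 fold change -1.59 ± 0.22 (adjusted p = 0.0481, edgeR). The TSA libraries were close to each other and well below all vehicle libraries. The promoter window of Cwc22 is printed beside those of the risen genes for that reason (chr2:77946342-77946441, minus strand, GRCm38.p6). It holds no C start with a pyrimidine run, and none of its letters are in capitals.
Cwc22: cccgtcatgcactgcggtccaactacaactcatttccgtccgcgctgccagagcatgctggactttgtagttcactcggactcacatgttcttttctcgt

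Cwc22 was the called member of 36 splicing factor and kinase genes whose transcripts can keep introns in the nucleus. Of these 36, 5 were above 0, and 16 were lower and 1 higher at an unadjusted p below 0.05. The median was -0.34, which became -0.52 without TSA library 2 and -0.24 without TSA library 1. Clk1, a kinase of splicing factors, was at 626, 539 and 518 CPM under vehicle and at 255 and 341 CPM under TSA (log2 fold change -0.91 ± 0.21) and missed the threshold (adjusted p = 0.0541, edgeR). Among 12 nuclear long noncoding RNAs none passed, 3 were above 0 and the median was -0.63, which became -0.39 without TSA library 1 and -0.91 without TSA library 2. Miat, one of them, was at 372, 247 and 421 CPM under vehicle and 66.9 and 142 CPM under TSA, with an adjusted p of 0.0517 (edgeR). Malat1, an abundant RNA of nuclear speckles, was at 9724, 10650 and 5618 CPM under vehicle and at 4653 and 6251 CPM under TSA, with overlapping groups (adjusted p = 0.279, edgeR). Summed over the list the level was 12560, 14200 and 9182 CPM against 6460 and 8694 CPM. TSA library 1, the higher of its group for ribosomal protein genes, was thus the lower one for nuclear RNAs, and the part of RNA composition in these results was not tested.

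Other fallen genes came from separate functions. Srebf1, which encodes a transcription factor for lipid synthesis, was at 80.8, 68.05 and 132 CPM under vehicle and at 35.2 and 37.7 CPM under TSA (log2 fold change -1.36 ± 0.25; adjusted p = 0.0481, edgeR). The 28 other sterol and fatty acid synthesis genes tested held no called gene, and the median of the list was 0.17, and 0.10 without TSA library 1. Flna encodes filamin A, an actin cross-linker needed for neurons to leave the ventricular zone. It went from 164, 133 and 122 CPM to 53.3 and 68 CPM. Nin encodes ninein, which anchors microtubules at the centrosome, and went from 145, 135 and 180.2 CPM to 55.0 and 79.0 CPM. Zfp57, a zinc finger protein that protects imprinted methylation, went from 137, 118 and 163 CPM to 68.7 and 72.2 CPM. It and Zfp692 were the called members of 344 Zfp genes.

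Grip2, a scaffold for AMPA receptors, went from 41.1, 44.7 and 40.9 CPM to 12.6 and 15.6 CPM. Gipr, the receptor of a gut peptide hormone, went from 56.3, 53.2 and 57.7 CPM to 19 and 23.04 CPM. Among fallen genes at 2 CPM or more in one group, clone and predicted names aside, the largest log2 fold changes belonged to low genes: Syt2, a synaptotagmin of synaptic vesicles, was at 4.31, 2.50 and 5.09 CPM under vehicle and 0.292 and 0.167 CPM under TSA, and Gfap, the intermediate filament of astrocytes, at 4.18, 1.97 and 1.94 CPM and 0.251 and 0.0418 CPM. Levels this low carry wide errors, with log2 fold changes of -4.08 ± 0.76 and -4.16 ± 0.88 (both SE). Of the 34 synaptic vesicle genes Syt2 alone passed.

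Lists of cell surface genes lay, by their medians, below the median of all genes without reaching the threshold. Among 56 collagen and integrin genes 15 were above 0 (median log2 fold change -0.50), among 64 axon guidance genes 8 (median -0.28), among 30 ionotropic glutamate and GABA receptor genes 9 (median -0.38) and among 54 clustered protocadherin genes 16 (median -0.35, and -0.23 without TSA library 1). No gene of these 4 lists was called, against 1.18% of all genes tested.

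Genes connected with the drug itself showed no call by edgeR, which called 1.18% of all genes tested. The 11 histone deacetylase genes had a median log2 fold change of -0.00 (from -0.06 to 0.10 over the alternatives). Single members ran from -1.41 to 0.45, and 1 was higher and 1 lower at an unadjusted p below 0.05. Hdac1 was at 36.4, 42.8 and 35.6 CPM under vehicle and 38.1 and 33.3 CPM under TSA. Hdac2 was at 170.1, 218 and 215 CPM and at 273 and 277 CPM, apart but not past the threshold (adjusted p = 0.128, edgeR, and 0.0462 with DESeq2). Of all genes tested, 19.7% were apart in this direction. Cdkn1a, the cell cycle inhibitor that deacetylase inhibitors raise in many cell types, was at 16.0, 23.9 and 14.4 CPM and at 37.6 and 31.6 CPM (log2 fold change 0.94 ± 0.26; adjusted p = 0.0717, edgeR). It passed with DESeq2 (adjusted p = 0.0130), limma-voom (0.0415), no low-count filter (0.0456, edgeR) and without vehicle library 2 (0.0373, edgeR), over a range of adjusted p up to 0.529. H1f0, a linker histone known for the same response, was at 106, 115 and 113 CPM and at 152 and 164.6 CPM (0.51 ± 0.15; adjusted p = 0.0877, edgeR, and 0.0143 with DESeq2). Among 12 genes that such drugs are known to raise, none passed, 9 were above 0 and the median was 0.42, and 0.23 without vehicle library 3.

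The risen genes were short. Gene span, the distance from the first to the last base of the gene in RefSeq GRCm38.p6, had a median of 5.22 kb over the 163 risen genes with a value, against 20.5 kb over all genes tested with a value. Of the risen genes 70.6% spanned under 10 kb, against 31.1% of all. Span was known for 68.1% of the fallen genes, too few for a comparison. Over all protein-coding genes, the median log2 fold change was 0.28 in the 1661 genes under 5 kb, 0.05 in the 2818 genes of 10 to 20 kb and -0.13 in the 935 genes over 200 kb. Leaving out the cytosolic and mitochondrial ribosomal and the respiratory chain lists, the median under 5 kb was 0.22. The share that rose went from 4.696% under 5 kb to 0.321% over 200 kb. Span is tied to expression level and RNA type, and the part of these in the relation was not tested.

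**Figure D3:**
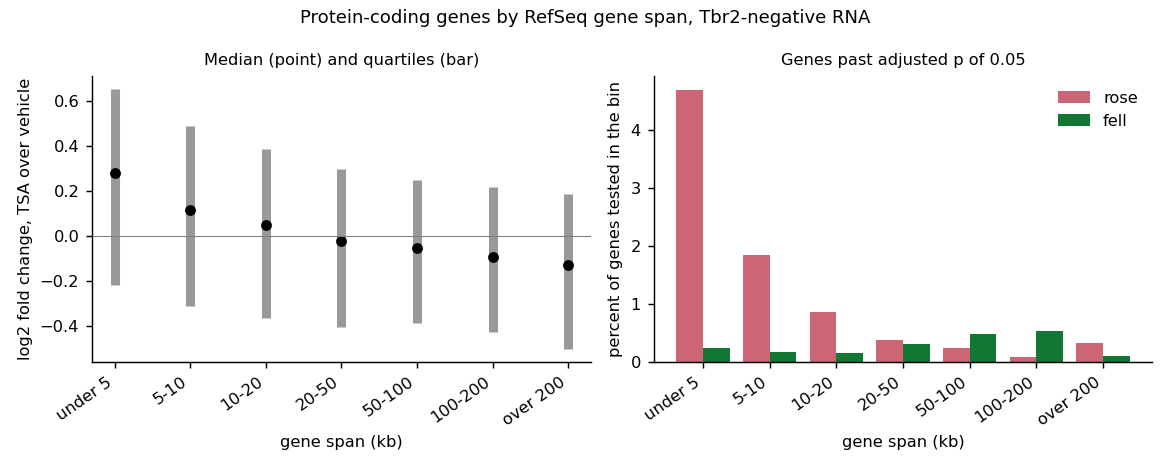
Protein-coding genes in 7 bins of gene span (kb); left, the median (point) and quartiles (bar) of the log2 fold change of TSA over vehicle, and right, the percent of genes in the bin that rose (red) or fell (green). The median goes from 0.28 in the shortest bin to -0.13 in the longest.

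In the Tbr2-positive fraction the same contrast, with 3 vehicle and 2 TSA libraries, gave no gene past the adjusted threshold by edgeR, 6 by limma-voom and 996 by DESeq2. At an unadjusted p below 0.05, 8.04% of genes were higher and 7.77% lower there. Of the 164 genes that rose in the Tbr2-negative fraction, 161 were above 0 in the Tbr2-positive one, with a median of 0.70 against 0.96, and 143 (87.2%) were higher at an unadjusted p below 0.05. Of the 72 that fell, 67 were negative there, with a median of -0.58 against -1.35, and 40 (55.6%) were lower at an unadjusted p below 0.05. The genes were chosen on their Tbr2-negative values, which by itself makes the medians of that fraction larger in size. Same-numbered libraries of the fractions deviated together from their group means (r between 0.15 and 0.212 over genes, which are not independent), so the fractions are not independent samples.

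The difference between the fractions was tested itself as an interaction, and no gene passed by edgeR or limma-voom, while 12 did by DESeq2 (lowest adjusted p = 0.634, edgeR; 1103 genes, 5.49%, at an unadjusted p below 0.05). Of the 236 called genes 49 had an unadjusted interaction p below 0.05. These genes were chosen on the same Tbr2-negative values, which by itself raises this number, so it shows no difference between the fractions. Rbms3, which encodes an RNA-binding protein, rose to 49.9 and 48.4 CPM from 20.9, 24.6 and 18.4 CPM, while its value in the positive fraction was -0.45 ± 0.22 on the log2 scale (interaction adjusted p = 0.634, edgeR). The log2 fold changes of Dlx5 and Isl1 were 0.06 ± 0.28 and -0.01 ± 0.32 in the positive fraction, with interaction adjusted p of 0.895 for both (edgeR). Sst and Zic1, the other called genes of their lists, stood at 1.19 ± 0.26 and 0.70 ± 0.28 there. In that fraction the interneuron list had a median of 0.27, with 20 of 26 genes above 0. The striatal, septal and ventral forebrain list had a median of 0.49 there, with 16 of 22 above 0. Tmsb10 (1.32), Rps29 (1.11) and Cwc22 (-1.68) had log2 fold changes of similar size there. Trnp1, a regulator of progenitor expansion, stood at -0.34 ± 0.40 on the log2 scale in the negative fraction and at 1.28 ± 0.40 in the positive one, and neither the effects nor their difference passed the threshold (interaction adjusted p = 0.895, edgeR).

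**Figure D4:**
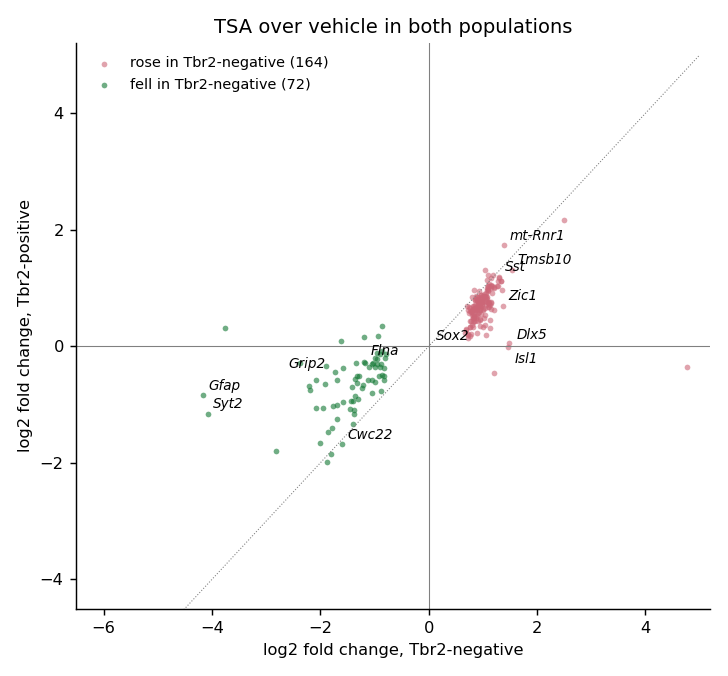
Log2 fold change of TSA over vehicle in the Tbr2-negative (horizontal) and Tbr2-positive (vertical) RNA libraries for the 236 genes called in the Tbr2-negative fraction; red genes rose, green genes fell and the dotted line marks equal values. Of the risen genes 161 lie above 0 on the vertical axis. Dlx5 and Isl1 lie near 0 there, and Sst and Zic1 lie above 0.

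H3K9ac was measured in 4 vehicle and 4 TSA libraries of the Tbr2-negative fraction, as peak lists from MACS. The lists held 47835 to 78929 peaks, and TSA library 4 was the shallowest (15173175 tags). The other TSA libraries had 22199383 to 23073573 tags and the vehicle libraries 25801692 to 28481476. Every TSA library was thus shallower than every vehicle library, and the part of depth in the shares below was not tested. A peak within 1 kb of the gene start, or of either end where no strand was known, was present for 98.8% ± 0.504 of the 162 risen genes with coordinates under vehicle and 98.9% ± 0.591 under TSA (SD, n = 4 each). Over all 17171 genes tested with coordinates these shares were 83.2% ± 0.574 and 82.4% ± 0.981. In 159 of the 162 risen genes a peak was present in all 8 libraries. The 49 fallen genes with coordinates, 68.1% of the fallen ones and thus too few for a comparison, had peaks in 94.9% ± 1.18 and 94.4% ± 1.02. No called gene had a peak in all or all but 1 of the 4 libraries of a group and in none of the other. By this rule there were 14 gains and 20 losses among all genes tested with coordinates. Presence of a peak does not measure its height, and heights from separate calls were not compared.

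At single genes, Tmsb10, Dlx5, Isl1, Zic1, Sox2, Cwc22 and Syt2 had a peak in 4 of 4 vehicle and 4 of 4 TSA libraries. Sst had one in 3 of 4 and 3 of 4, and Gfap in 2 of 4 and 1 of 4.

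**Figure D5:**
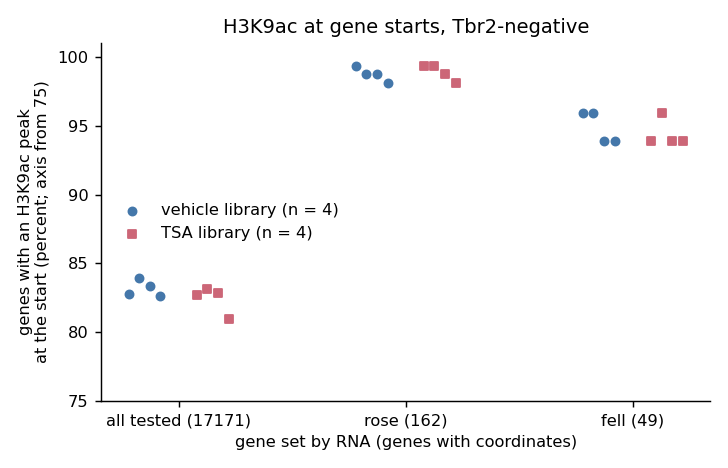
Percent of genes with an H3K9ac peak at the start (axis from 75) in the 4 vehicle (circles) and 4 TSA (squares) Tbr2-negative libraries, for all genes tested and for the genes whose RNA rose or fell. The risen genes lie between 98.2 and 99.4 in every library and the groups overlap.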

How the data were processed

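RNA libraries were made with the TruSeq RNA v2 kit per the labels' protocols, which marks no strand, so overlapping and antisense genes (such as Srrm4os) cannot be told apart. The values are raw read counts per gene as deposited by the authors. The submitters' processing notes name SAMtools and the mm10 build, and the aligner and counter: not given in the sources used here. Of 48709 gene identifiers 48349 had a symbol.

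All 10 RNA libraries were fitted with edgeR 4.0.16 in R 4.3.3 (low counts dropped by filterByExpr, scaling by TMM, robust quasi-likelihood fit, 1 mean per group), with Benjamini-Hochberg adjustment over all 20078 genes at 0.05. A standard error is the size of the log2 value over the root of its F statistic. The common biological coefficient of variation was 0.374. On simulated counts for this comparison, 56 of 100 genes changed 2-fold and 94 of 100 changed 4-fold were called, with 9 false calls among 159. The simulation drew each gene independently and changed only genes above 10 CPM. It held no difference between libraries of a group that many genes share, as these libraries show. Its recovery and false calls may therefore not hold for the real counts. Alternatives used DESeq2 1.42.0, limma 3.58.1, other scalings and filters, a replicate block and left-out libraries.

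Per the file headers, the authors ran MACS 2.1.0.20140616 on the H3K9ac libraries with a q value threshold of 0.1. The -log10 q in the deposited lists served as a stricter threshold only. Promoters are from RefSeq GRCm38.p6.

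Named genes were the 15 largest changes in each direction among called genes (at least 2 CPM, no clone name, ranges apart), the 8 called genes highest in level in each direction, up to 3 called genes per list, the 5 smallest interaction p-values in each direction and a set of marker genes. Members of lists outside this rule (Clk1, Miat, Dlx2, Gad1, Gad2) were chosen after their values were seen. A result that this rule would name is left out here. The comparison and the 42 lists were chosen with earlier results of these data known.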

Additional observations from a re-analysis of the deposited data

Results flagged for a closer look

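In the vehicle and the TSA group of H3K9ac libraries, 10 sets of 4 values were examined for a value far from the others. Of these sets 2 stood out, where chance gives about 1 in 20. The sets come from the same libraries and are not independent. TSA library 4 had 15.17 Mtags of ChIP (15173175 tags), while the other TSA libraries had 22199383, 23073573 and 22462774 tags. TSA library 2 had a peak at the start of 95.92% of the 49 fallen genes with coordinates, while the other 3 TSA libraries shared the value 93.88%. That difference is 1 gene, Gfap, and vehicle libraries 1 and 2 also had 95.92%. Where the other 3 values are tied, any difference is flagged, so the rate of 1 in 20 does not apply to it.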

How the results depend on the processing

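Every one of the 236 called genes kept its direction under all 20 alternatives. Their group ranges were apart, so a turn was unlikely, and the alternative at an adjusted p of 0.1 is the same fit. The kept directions are thus no separate support. The number of calls moved with most alternatives. Genes that rose and fell numbered 0 and 0 with upper-quartile scaling and in the fit that was not robust, 1069 and 914 with DESeq2, 516 and 225 with limma-voom, 612 and 332 with no filter, 278 and 161 with a stricter filter (over 1 CPM in 2 libraries), 249 and 152 with only the 5 Tbr2-negative libraries, 827 and 555 at an adjusted p of 0.1, and 139 and 68 with RLE scaling. Risen genes were 69.5% of calls in the reported fit and 53.9% with DESeq2. Leaving out 1 library gave 0 to 486 risen and 0 to 193 fallen genes. With the replicate number as a block 11 rose and 3 fell, of which 3 and 2 were among the reported calls. Same-numbered Tbr2-negative vehicle and TSA libraries did not deviate together (r of -0.0164 and -0.0372). With 2 TSA libraries their deviations mirror each other, so these values cannot show whether same-numbered libraries share a source. The labels do not say. The interaction gave 12 genes with DESeq2 and 0 in every other fit that held both fractions, also with the block within treatment, an alternative chosen after seeing the data. Directions turned for 3 genes that did not pass in the reported fit. Their log2 fold changes over the left-out libraries ran from -0.11 to 0.40 for Pax6 (below 0 without Tbr2-negative vehicle library 2, -0.11, or 3, -0.02, or TSA library 2, -0.07), from -0.11 (without vehicle library 3) to 0.59 for Mki67 and from -0.23 (without TSA library 1) to 0.56 for Glb1l2. For the risen and the fallen genes, the TSA minus vehicle difference in the H3K9ac share stayed within 1 SD (the larger of the groups) of its reported value. At these depths and with 2 TSA libraries, 56 of 100 simulated 2-fold changes were recovered, so a gene without a call is not shown to be unchanged.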

Other observations

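Outside the lists above, 97 risen and 66 fallen genes remained, and 2 families among them were looked at after their values were seen. Of the 11 tested BEX and TCEAL genes, small X-linked genes expressed in neurons, Bex1, Bex2, Bex3, Tceal8 and Tceal9 rose and none fell. All 11 were above 0, with a median log2 fold change of 1.09 in the Tbr2-negative and 0.63 in the Tbr2-positive fraction. Their summed level was 670, 974 and 839 CPM under vehicle and 1722 and 1514 CPM under TSA. Tceal9 went from 125, 188 and 156 CPM to 374 and 321 CPM, and Bex1 from 42.4, 58.9 and 47.2 CPM to 123.3 and 87.65 CPM.

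Of 9 tested G protein gamma subunit genes, which anchor heterotrimeric G proteins to the membrane, Gng2 and Gng3 rose and none fell (8 above 0). The median log2 fold change was 0.60, or 0.96 with the replicate block and 0.47 without TSA library 1. Gng3 went from 130, 190 and 150.5 CPM to 374 and 285 CPM.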
